A study of Danio rerio with 7 samples.

Results

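Genes of sterol synthesis and its regulators were described in zebrafish (Danio rerio) cells expressing sox10, a neural crest gene, which had been sorted from whole embryos. The genes were taken by name from the deposited expression table: 9 names were sought, and 8 of them (srebf2, FDFT1, hmgcrb, hmgcs1, insig1, dhcr7, cyp51 and idi1) were found with that spelling among 33827 entries and are described here. None of these 8 is a gene of sterol uptake, and the other name is not reported here.

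The names were selected on their FPKM levels in these same 6 libraries, so the values of the 8 genes are given as a description, with no test, in every comparison. The libraries fell into 3 groups of 2, all of sorted sox10-positive cells from embryos raised at 28 °C. One group came from uninjected embryos in DMSO, with columns named by an amount, 5 ng and 10 ng. Another came from embryos injected with a morpholino against ctr9 and kept in DMSO, and the last from embryos injected with the same morpholino and kept in 32 µM progesterone from 50% epiboly to 15 somites, both as experiments 1 and 2. The ctr9 product belongs to the PAF1 complex, which travels with elongating RNA polymerase II, and morpholinos are antisense oligonucleotides that interfere with splicing or translation. The series concerns the RNA helicase DDX21 and nucleotide stress. Progesterone without the morpholino was not analysed here, so an effect of progesterone cannot be told apart from one that needs the morpholino. Whether the 2 libraries of a group are separate clutches is not given in the labels.

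Cells make cholesterol from acetyl-CoA through the mevalonate pathway and take it up from lipoproteins. In mammalian cells the membrane-bound transcription factor SREBP-2, the product of SREBF2, is held in the endoplasmic reticulum by its escort SCAP and the INSIG proteins while sterols are plentiful. When sterols fall it is cut free by proteases and turns on the genes of synthesis and uptake, INSIG1 and its own gene included. Cholesterol is also attached to Hedgehog ligands, and loss of human DHCR7 causes Smith-Lemli-Opitz syndrome, a malformation syndrome that includes the face. In cultured mammalian cells, progesterone at micromolar concentrations is known to slow the movement of cholesterol out of lysosomes.

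The libraries differed in ways that touch every value below. FPKM (fragments scaled by transcript length and library depth) are per length, so levels can be compared between genes. The progesterone library of experiment 2 stood apart. Its FPKM summed to 218077, where the other 5 summed to 356240 to 366907, and it held 9581 genes at 1 FPKM or more, against 11788 to 13534 in the others. Small RNA names took 20.5% and 30.3% of summed FPKM in the progesterone libraries and 12.5% to 16.0% in the other 4, and the part of this in the values below was not tested. The number of sequenced fragments is not in the table, and steps between low values gave depths between 1 and 1.47 relative to the 5 ng library. In the progesterone libraries of experiments 1 and 2 the most frequent step was shared by only 55 of 1688 and 32 of 1313 genes compared. These depths are therefore rough, and the true depth is unknown. Over all 13155 genes with a mean of at least 1 FPKM, the median log2(FPKM + 1) difference between progesterone and DMSO in injected embryos was -0.58. It was -0.07 between morpholino and uninjected in DMSO, and -0.67 between morpholino with progesterone and uninjected. A relative change below is a log2 difference minus the median difference of its own comparison, experiment or setting. Values were also computed after scaling by median-ratio size factors, which left a median of -0.08 between progesterone and DMSO. The morpholino's target ctr9 stood at 42.2 and 36.7 FPKM in the DMSO libraries labelled ctr9 morpholino, at 26.2 and 20.6 with progesterone and at 16.8 and 19.95 in uninjected cells. These levels do not check the label, because blocked translation can leave the mRNA in place. In bulk samples such as these, fewer cells of a type and less RNA per cell cannot be told apart.

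The first question was what progesterone does in embryos injected with the ctr9 morpholino. Of the 8 genes, 6 were higher in both progesterone libraries than in both DMSO libraries of injected embryos: the regulators srebf2 and insig1, and the enzymes hmgcs1, FDFT1, cyp51 and dhcr7. They were also above both uninjected libraries. The isomerase gene idi1 overlapped, and hmgcrb, which encodes an HMG-CoA reductase, was lower. Among all genes tested, the progesterone libraries lay above the morpholino DMSO libraries without overlap for 6.86% and below for 44.5%, and after median-ratio scaling for 20.1% and 24.3%. Against all 4 DMSO libraries these shares were 3.25% and 37.3%, and after scaling 1848 of the 13155 tested genes lay above and 17.9% below. Because the genes were chosen with this contrast known, nothing is read from their count.

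**Figure D1:**
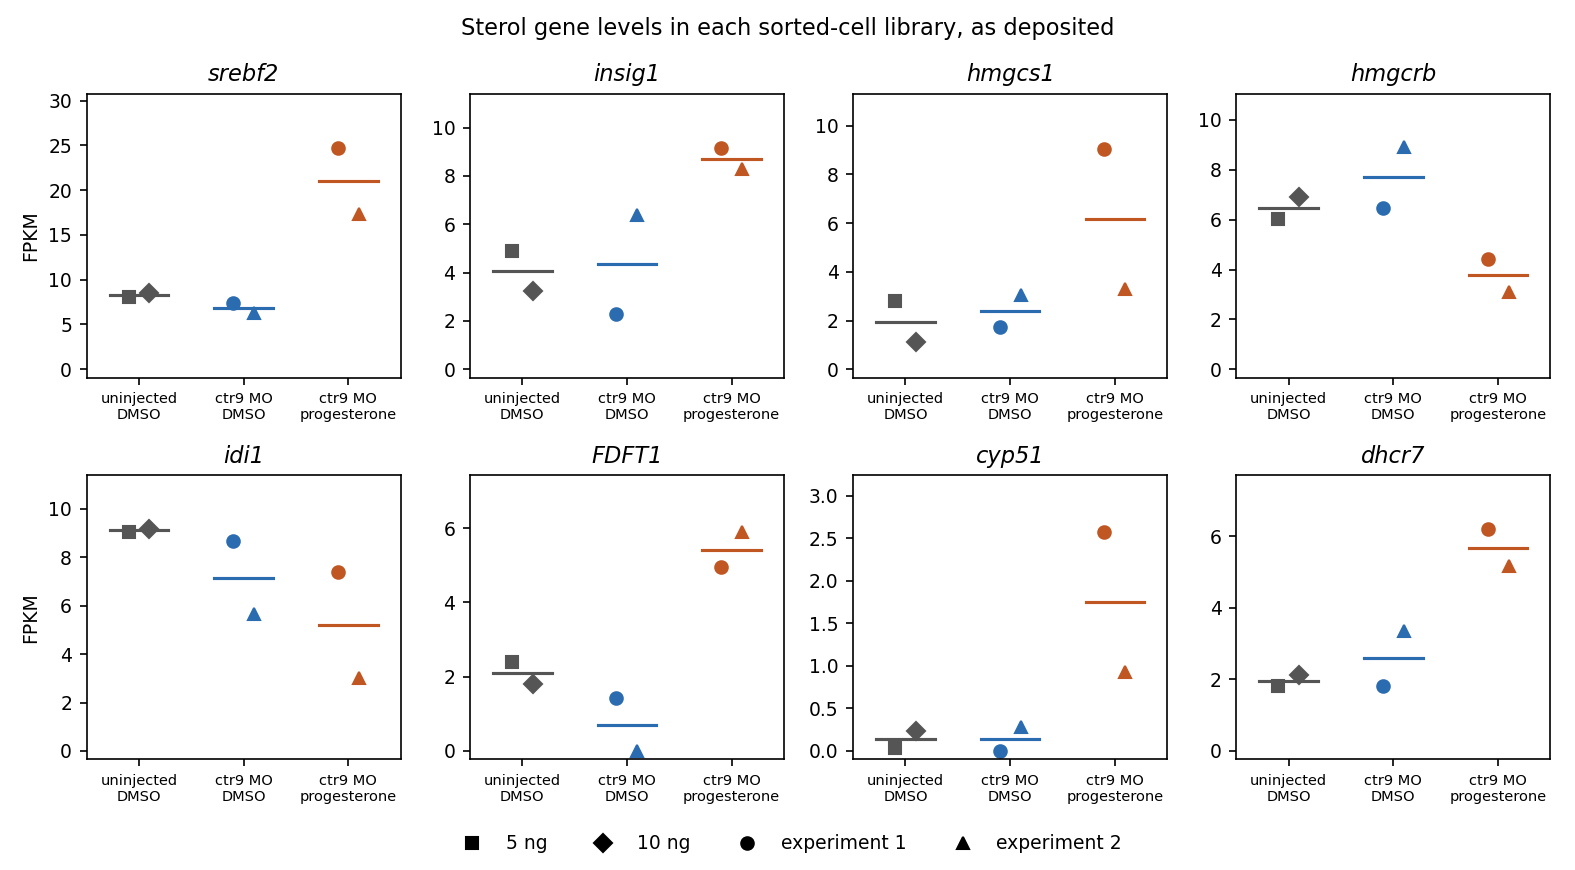
Level of 8 sterol genes in FPKM (vertical axis, linear, a separate scale for each gene) in each library of the 3 groups, with a bar at the mean of the 2 libraries of a group and marker shapes for the amount or experiment number. The 2 progesterone points of srebf2, at 24.7 and 17.4 FPKM, lie above all 4 DMSO points, while those of hmgcrb, at 4.44 and 3.12 FPKM, lie below them.

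Of the regulators, srebf2 (ENSDARG00000063438) encodes the transcription factor itself. Its level was 24.7 FPKM in experiment 1 and 17.4 FPKM in experiment 2 with progesterone, 7.39 and 6.25 FPKM in the morpholino DMSO libraries of the same numbers, and 8.10 and 8.55 FPKM in the 5 ng and 10 ng uninjected libraries. The 4 DMSO libraries lay close together, and both progesterone libraries were well above them. The mean with progesterone was 3.09 times that in DMSO, a log2 difference of 1.48 ± 0.34 (SE from limma, n = 2 against 2) and a relative change of 2.06. After median-ratio scaling the progesterone libraries spanned 26.7 to 29.8 and the 4 DMSO libraries 5.68 to 6.71, so that the gap between the 2 progesterone libraries narrowed.

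Insig1 (ENSDARG00000010658), whose product retains SCAP and SREBP in the endoplasmic reticulum, stood at 9.17 and 8.27 FPKM with progesterone, against 2.29 and 6.40 in morpholino DMSO and 4.88 and 3.25 in uninjected cells. As deposited its progesterone libraries were close while its DMSO libraries spread widely, with that of the morpholino in experiment 2 the highest. After median-ratio scaling the progesterone libraries were further apart, at 9.88 and 14.2, and the 4 DMSO libraries spanned 1.83 to 5.81. As deposited the log2 difference was 0.98 ± 0.48 and the relative change 1.56. Without the morpholino DMSO library of experiment 1 the relative change was 0.89, and without that of experiment 2 it was 2.22.

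Among the enzymes, hmgcs1 (ENSDARG00000052738) encodes the synthase that makes HMG-CoA at the entry of the mevalonate pathway. It stood at 9.04 and 3.28 FPKM with progesterone, 1.72 and 3.03 in morpholino DMSO and 2.81 and 1.105 in uninjected cells. The progesterone library of experiment 2 was barely above the DMSO library of its own experiment, so the log2 difference of 0.98 ± 0.57 rested mostly on experiment 1. Scaled, the 2 progesterone libraries were at 9.75 and 5.63 and the highest of the 4 DMSO libraries at 2.75.

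FDFT1 (ENSDARG00000060260) encodes squalene synthase, which makes squalene, the first committed step to sterols. It stood at 4.95 and 5.89 FPKM with progesterone, 1.42 and 0 in morpholino DMSO and 2.39 and 1.81 in uninjected cells. Its log2 difference, 2.04 ± 0.52, was the highest of the 8 genes, and it was raised by the library in which the gene was listed at 0. Against uninjected cells, where no library was at 0, the log2 difference was 1.05 ± 0.52. Scaled, the 2 progesterone libraries were further apart, at 5.34 and 10.1, and the highest of the 4 DMSO libraries was at 1.98.

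Cyp51 (ENSDARG00000042641), the lanosterol demethylase, had the lowest mean of the 8 genes in each group. It stood at 2.57 and 0.927 FPKM with progesterone, at 0 and 0.282 in morpholino DMSO, and at 0.0347 and 0.241 in uninjected cells. Its mean over 6 libraries was below 1 FPKM, so it was outside the fit. The difference of the group means on the log2(FPKM + 1) scale was 1.21, which understates the change of so low a gene.

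Dhcr7 (ENSDARG00000015564) encodes the reductase of the last step to cholesterol. It stood at 6.20 and 5.16 FPKM with progesterone, 1.81 and 3.36 in morpholino DMSO, and 1.80 and 2.13 in uninjected cells. Both progesterone libraries were above all 4 DMSO libraries, and the log2 difference was 0.93 ± 0.40, a relative change of 1.51.

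The other 2 genes, also of the mevalonate pathway, went another way. Hmgcrb (ENSDARG00000059301), a zebrafish gene for HMG-CoA reductase, the enzyme that limits the rate of the pathway, stood at 4.44 and 3.12 FPKM with progesterone, 6.46 and 8.93 in morpholino DMSO and 6.04 and 6.90 in uninjected cells. As deposited both progesterone libraries were below all 4 DMSO libraries, with a log2 difference of -0.86 ± 0.37, but the relative change was -0.28, and after median-ratio scaling the progesterone libraries, at 4.79 and 5.34, overlapped the DMSO libraries, which spanned 5.004 to 8.10. Idi1 (ENSDARG00000019976), the isopentenyl diphosphate isomerase, stood at 7.38 and 2.999 FPKM with progesterone, 8.66 and 5.66 in morpholino DMSO and 9.03 and 9.18 in uninjected cells. Its log2 difference was -0.47 ± 0.46 and its relative change 0.11, with overlap on both scales. Leaving out each morpholino library in turn, the relative change of hmgcrb ran from -0.57, without the DMSO library of experiment 1, to -0.0034, without that of experiment 2. That of idi1 ran from -0.12, without the progesterone library of experiment 1, to 0.35, without that of experiment 2, and it was also below 0, at -0.086, without the DMSO library of experiment 2.

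The experiment numbers rearrange the same morpholino libraries, and a gene higher without overlap is higher within each number, so they add no separate evidence. Within experiment 1 the relative changes of srebf2, insig1, hmgcs1, FDFT1, cyp51 and dhcr7 lay between 1.66 and 2.24, and within experiment 2 between 0.861 and 3.56. Those of hmgcrb were -0.09 and -0.50, and those of idi1 0.16 and 0.04. Across the 8 genes the median relative change was 1.56, where the median of all genes is 0 by construction, and it was 1.57 with median-ratio scaling and 1.15 without the morpholino DMSO library of experiment 1.

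The order of levels differed between uninjected cells and those with both morpholino and progesterone, and the part of progesterone was not tested. In uninjected cells idi1 (mean 9.11 FPKM) and srebf2 (8.32) were highest, followed by hmgcrb (6.47) and insig1 (4.07), then FDFT1 (2.10), dhcr7 (1.97) and hmgcs1 (1.96), with cyp51 (0.138) last. FDFT1, dhcr7 and hmgcs1 overlapped one another there and their order cannot be read. In morpholino DMSO, hmgcrb (6.46 and 8.93 FPKM), idi1 (8.66 and 5.66) and srebf2 (7.39 and 6.25) overlapped, so none of them can be put first. With morpholino and progesterone srebf2 (21.1 FPKM) was first, its lower library above the higher library of every other gene of the 8. Insig1 (8.72) followed, then hmgcs1 (6.16), dhcr7 (5.68), FDFT1 (5.42), idi1 (5.19) and hmgcrb (3.78). Hmgcs1 overlapped all 5 of these, since its libraries were far apart, and idi1 overlapped dhcr7, FDFT1 and hmgcrb, so the places of hmgcs1 and idi1 cannot be read. Dhcr7 and FDFT1 overlapped each other and both lay above hmgcrb. Insig1 lay above dhcr7, FDFT1, idi1 and hmgcrb, and cyp51 (1.75) came last.

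**Figure D2:**
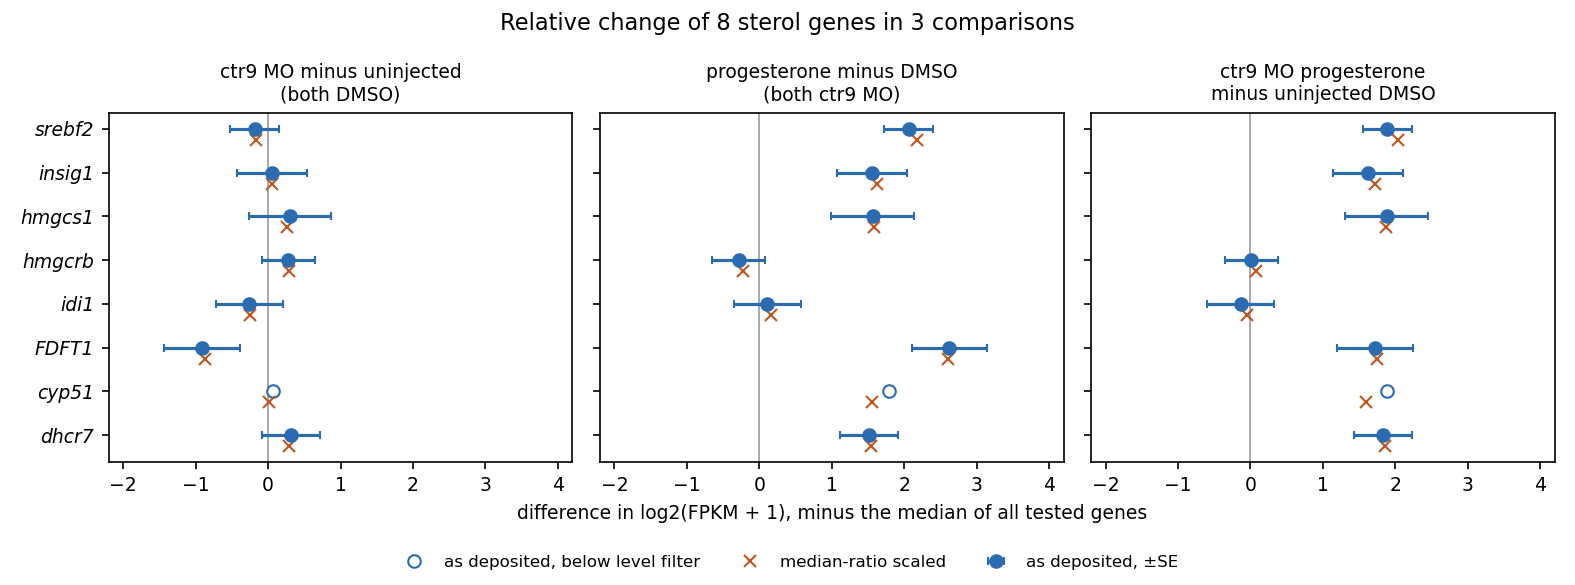
Relative change of the 8 genes, as the difference in log2(FPKM + 1) minus the median of all tested genes (horizontal axis), in 3 comparisons; filled circles with SE bars are values as deposited, the open circle is cyp51, which was outside the fit, and crosses are values after median-ratio scaling. In the middle panel 6 genes lie between 1.51 and 2.62 and hmgcrb and idi1 near 0, at -0.28 and 0.11.

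The second comparison set the morpholino against no injection, both in DMSO. No group was injected with a control, so an effect of injection cannot be told apart from one of lowered ctr9. The uninjected columns are named by an amount and not by an experiment number, so a difference in preparation cannot be told apart either. Both limits also hold for the third comparison. The median relative change of the 8 genes was 0.06. Srebf2, FDFT1 and idi1 were lower in both morpholino libraries than in both uninjected ones, 3 of 8, where 26.1% of all tested genes were lower without overlap, and none of the 8 was higher, where 16.5% were. After median-ratio scaling these background shares were 22.0% lower and 22.9% higher. The log2 differences were -0.26 ± 0.34 for srebf2, -0.99 ± 0.52 for FDFT1 and -0.33 ± 0.46 for idi1. Insig1, hmgcs1, dhcr7, cyp51 and hmgcrb overlapped, with log2 differences between -0.02 and 0.24.

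The third comparison set morpholino with progesterone against uninjected DMSO cells. It shares its progesterone libraries with the first comparison and its uninjected libraries with the second, so it is not separate evidence. The same 6 genes had higher levels in both progesterone libraries, with log2 differences of 1.22 ± 0.34 for srebf2, 1.21 ± 0.57 for hmgcs1, 1.17 ± 0.40 for dhcr7, 0.96 ± 0.48 for insig1 and 1.05 ± 0.52 for FDFT1, and of 1.21 for cyp51. Hmgcrb and idi1 were lower without overlap, by -0.66 ± 0.37 and -0.80 ± 0.46 against a median of -0.67 for all genes. Of all tested genes 5.94% were higher and 53.0% lower without overlap here, and after scaling 21.4% and 26.9%, when 6 of the 8 were higher and none lower.

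Other genes of the pathway were taken from a list of enzymes, of genes that control SREBP, and of genes of sterol uptake and transport. Of 59 entries found, 33 had a mean of at least 1 FPKM and were tested. In the progesterone comparison limma called none of them higher and none lower at a Benjamini-Hochberg adjusted p of at most 0.05 over all genes, with a smallest adjusted p of 0.152, and 0.00% of all tested genes were called in either direction. At an unadjusted p under 0.05, 4 were higher and 6 lower, where 1.88% and 19.8% of all tested genes were. After median-ratio scaling 6 were higher and 2 lower, where 7.45% and 9.49% were, and none was called, where 0.00760% of all tested genes were called higher. Their median relative change was 0.17, with 21 of 33 above the median of all genes, and 0.09 with 18 of 33 after scaling. Without the progesterone library of experiment 1, limma called 9 of these genes, 1 higher and 8 lower, and the remaining progesterone library is the one with the low FPKM sum. In that setting 1.79% of all tested genes were called higher and 28.4% lower.

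Of the control genes, srebf1, which encodes SREBP-1, the related factor that favours fatty acid synthesis in mammals, was the furthest above the median. It stood at 11.4 and 9.98 FPKM with progesterone, 2.82 and 1.56 in morpholino DMSO and 3.15 and 3.41 in uninjected cells. Both progesterone libraries were above all 4 others, with a log2 difference of 1.90 ± 0.38 (limma adjusted p = 0.152, and 0.123 after scaling). Scap, which encodes the escort that carries SREBP to the Golgi, stood at 2.45 and 0.836 FPKM against 6.27 and 4.95 in morpholino DMSO and 3.96 and 4.32 in uninjected cells, lower on both scales (log2 difference -1.38 ± 0.44, adjusted p = 0.172). The protease genes mbtps1 and mbtps2 had relative changes of -0.57 and 0.02, and insig2 0.08. Mbtps1 stood at 13.1 and 3.39 FPKM with progesterone and at 19.0 and 14.3 in morpholino DMSO. Scaled, it overlapped, at 14.1 and 5.81 against 15.2 and 13.0. The degradation genes rnf139, amfr, faf2 and ube2g2 had relative changes of 0.46, 0.12, -0.47 and -1.01. Without the progesterone library of experiment 1 that of ube2g2 was -1.61 and that of faf2 0.061, and without that of experiment 2 they were -0.40 and -0.99.

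**Figure D3:**
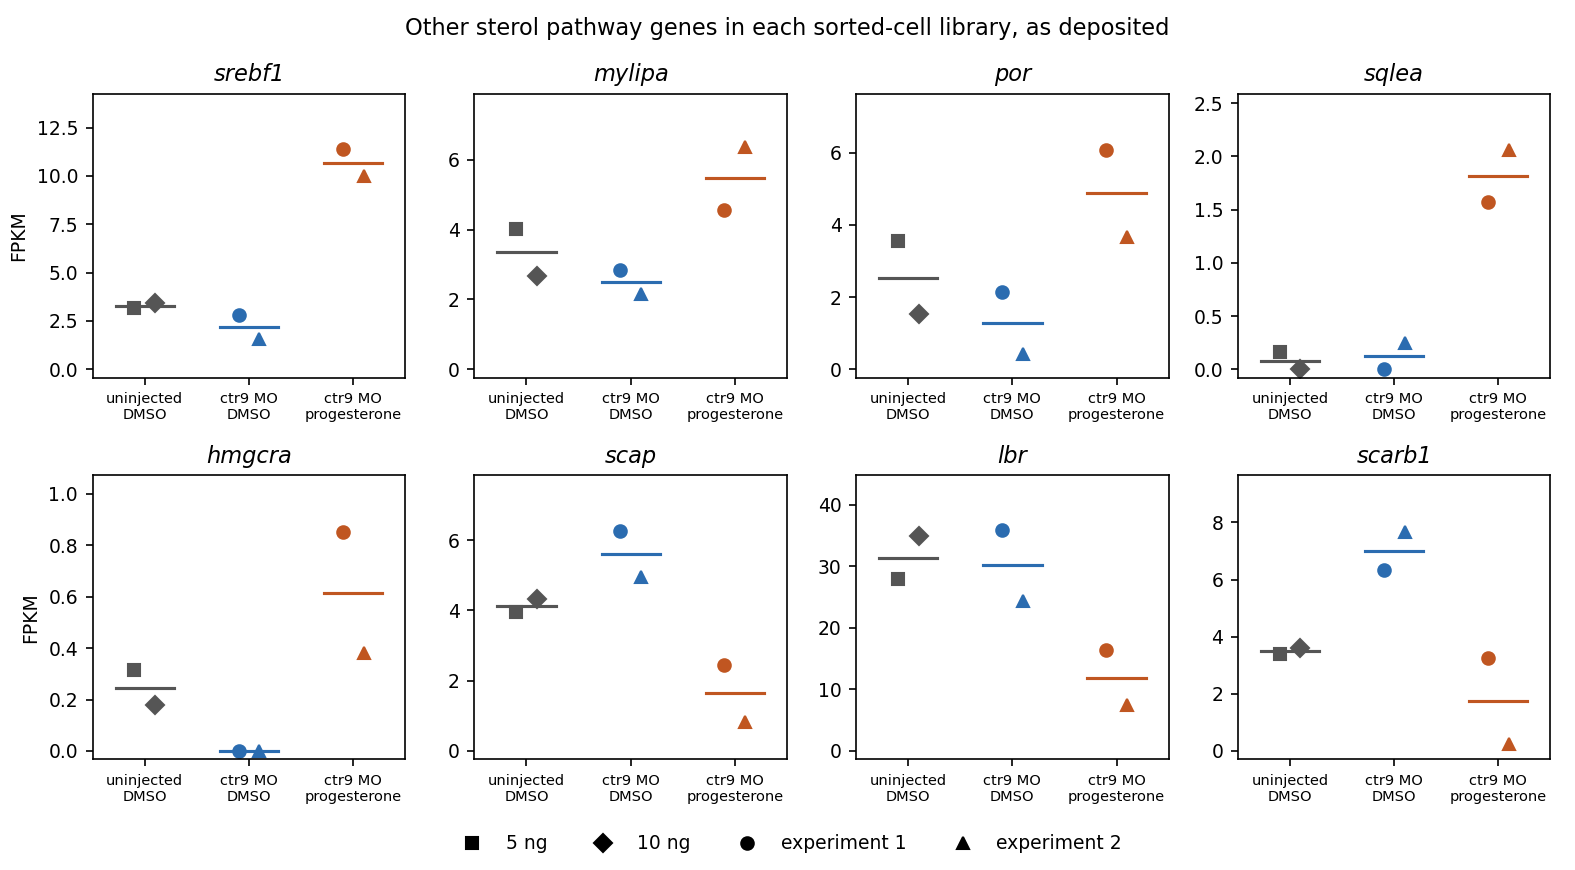
Level in FPKM (vertical axis, linear, a separate scale for each gene) of 8 other sterol pathway genes in each library of the 3 groups, chosen after their values were seen, with a bar at each group's mean and marker shapes as for the 8 sterol genes above. Srebf1, mylipa, por, sqlea and hmgcra have both progesterone points above both morpholino DMSO points, and scap, lbr and scarb1 have both below.

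Of the 25 other synthesis enzyme entries, 17 averaged under 1 FPKM and were not tested. Over all 25, 4 were higher and 3 lower with progesterone than in morpholino DMSO without overlap as deposited, and 6 were higher and 2 lower after scaling. Of the 8 tested, 1 was higher and 2 lower as deposited, where 6.86% and 44.5% of all tested genes were. After scaling 2 were higher and 1 lower, where 20.1% and 24.3% were. No such share was computed for genes under 1 FPKM, so nothing is read from these counts. Sqlea, a squalene epoxidase gene, was at 1.58 and 2.06 FPKM with progesterone, at 0 and 0.249 in morpholino DMSO and at 0.163 and 0 in uninjected cells. Hmgcra, the other HMG-CoA reductase gene, was at 0.851 and 0.380 FPKM with progesterone, listed at 0 in both morpholino DMSO libraries and at 0.314 and 0.179 in uninjected cells. As deposited both genes were thus above all 4 DMSO libraries, where hmgcrb was below them. For hmgcra this rests on low values, 0.380 against 0.314 FPKM, and hmgcrb overlapped the DMSO libraries after scaling. No difference in direction between the 2 reductase genes is read from this. The cyclase gene lss, at 0.528 and 1.06 FPKM with progesterone, overlapped morpholino DMSO, at 0 and 0.622. Msmo1, at 1.32 FPKM in the progesterone library of experiment 1, was listed at 0 in that of experiment 2. Tm7sf2, a sterol reductase gene, was listed at 0 in both progesterone libraries, at 4.28 and 0.130 FPKM in morpholino DMSO and at 0.0875 and 1.15 in uninjected cells.

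Of the enzymes tested, fdps, farnesyl diphosphate synthase, stood at 6.59 and 3.65 FPKM against 3.83 and 3.96 in morpholino DMSO and overlapped as deposited, with a relative change of 0.86. Por, the electron donor of cytochrome P450 enzymes such as cyp51, stood at 6.08 and 3.66 against 2.14 and 0.415 FPKM (log2 difference 1.45 ± 0.57, limma adjusted p = 0.215). Its other copy, entered as POR (2 of 2), stood at 5.74 and 0.138 against 2.51 and 3.08 FPKM and overlapped. Lbr, a nuclear envelope protein with sterol reductase activity, was the highest of these genes, at 16.4 and 7.46 FPKM against 35.9 and 24.4, and had a log2 difference of -1.34 ± 0.44 (limma adjusted p = 0.177) and a relative change of -0.76. In uninjected cells lbr stood at 27.9 and 34.8 FPKM and fdps at 3.36 and 4.52. Por stood there at 3.54 and 1.52 FPKM, and POR (2 of 2) at 3.97 and 3.04.

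For uptake and transport, mylipa encodes a ubiquitin ligase that lowers lipoprotein uptake in mammals. It stood at 4.58 and 6.37 FPKM with progesterone, 2.83 and 2.17 in morpholino DMSO and 4.03 and 2.68 in uninjected cells. The entry GRAMD1B (2 of 2), for a carrier that moves cholesterol from plasma membrane to endoplasmic reticulum, stood at 8.93 and 3.51 against 2.19 and 1.90 FPKM (1.14 ± 0.47, limma adjusted p = 0.229). Its progesterone libraries overlapped the uninjected ones, at 4.43 and 4.41 FPKM. Gramd1a stood at 1.73 and 2.91 against 9.37 and 6.49 FPKM, and at 4.88 and 10.6 in uninjected cells. The lysosomal exporter genes npc1 and npc2 had relative changes of 0.32 and -0.18. Scarb1, the receptor for high-density lipoprotein, stood at 3.26 and 0.247 against 6.34 and 7.67 FPKM (-1.79 ± 0.61, limma adjusted p = 0.184). In uninjected cells scarb1 stood at 3.39 and 3.59 FPKM, near its progesterone library of experiment 1. Its relative change was -1.21, and -0.61 without the progesterone library of experiment 2. For mylipa the relative change was 1.46, and 0.97 without that library. For gramd1a it was -0.85, and -0.29 without the progesterone library of experiment 1 or -1.40 without that of experiment 2.

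**Figure D4:**
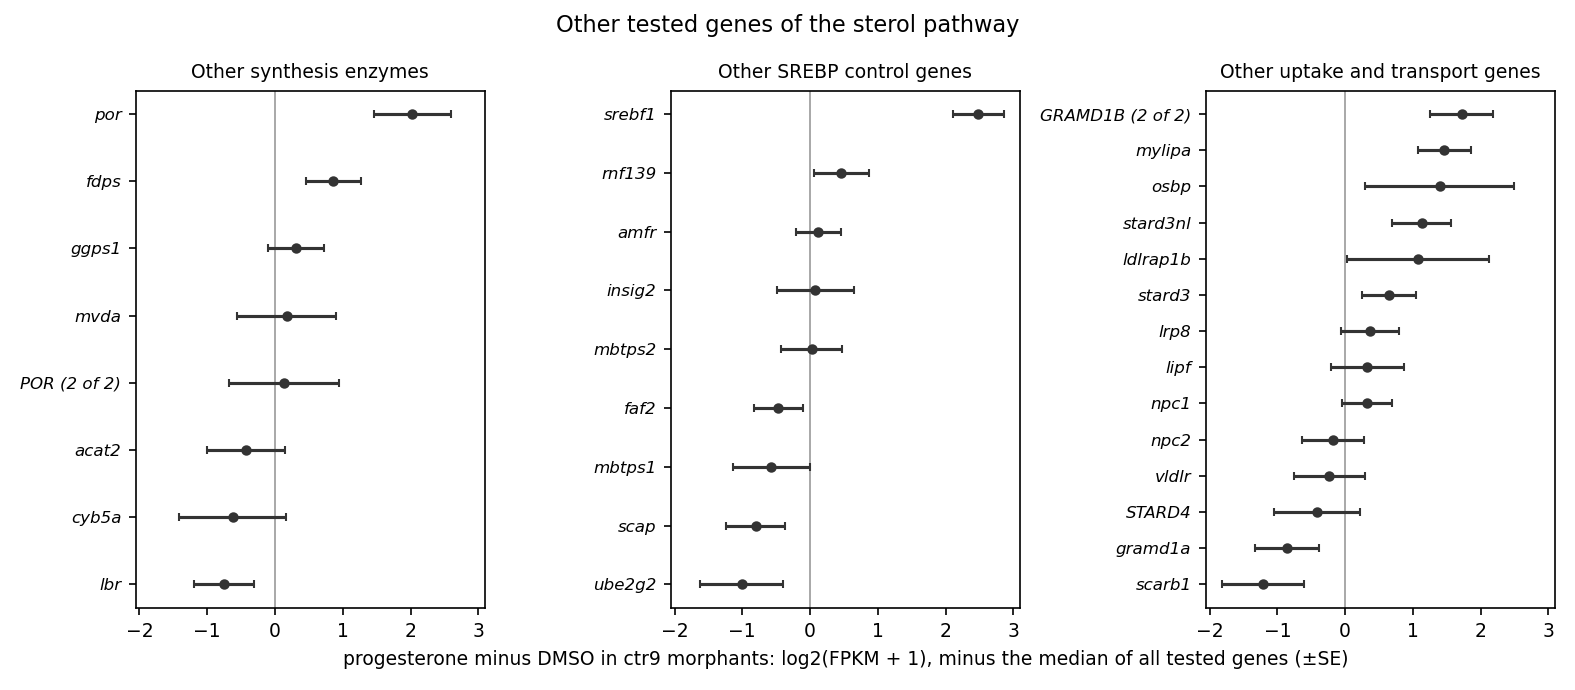
Relative change with progesterone in embryos injected with the ctr9 morpholino (horizontal axis, difference in log2(FPKM + 1) minus the median of all tested genes, bars are SE) of 31 of the 33 other sterol pathway genes tested, in 3 panels by role. Srebf1 is furthest right at 2.48 and scarb1 furthest left at -1.21, and none passed the adjusted threshold.

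Neighbouring lipid genes were fewer. Of 15 efflux and storage entries 4 were tested, and none was called. Abca1a and abca1b, cholesterol exporters, stood at 10.7 and 8.99 FPKM against 10.4 and 7.98 in morpholino DMSO, and at 5.55 and 4.16 against 4.21 and 4.88, and had relative changes of 0.67 and 0.65. Scaled, abca1a was at 11.5 and 15.4 against 8.35 and 7.24, and abca1b at 5.99 and 7.13 against 3.37 and 4.43. Both were then higher without overlap, where 20.1% of all tested genes were. Of 17 fatty acid synthesis entries 5 were tested and none was called. Acss2, an acetyl-CoA synthetase that SREBP controls in mammals, had a relative change of -1.04. It stood at 20.9 FPKM in experiment 1 and 3.57 in experiment 2 with progesterone, against 34.4 and 25.9 in morpholino DMSO. Its lowest value is thus that of the progesterone library with the low FPKM sum. The 2 fasn entries had relative changes of 1.08 and 1.52. Reads of the 2 fasn entries could be split between them, so both are uncertain.

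In the second comparison none of the 33 was called and none had an unadjusted p under 0.05, where 1.45% of all tested genes were higher and 2.67% lower at that threshold. At the adjusted threshold limma called 0.0152% of all tested genes lower there, and none higher, on both scales. In the third none was called, with a smallest adjusted p of 0.133, and 1 was higher and 5 were lower at an unadjusted p under 0.05, where 1.77% and 23.0% of all tested genes were. After scaling 6 were higher and 1 lower, where 7.44% and 8.74% were. At the adjusted threshold 0.0152% of all tested genes were lower as deposited, and 0.0684% were higher and 0.0228% lower after scaling.

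Genes whose profile was most like the mean profile of the 8 were found by Pearson's r over the 6 libraries, on log2(FPKM + 1) minus each library's median over the tested genes, among 6276 candidates with a mean of at least 5 FPKM. The 10 highest were tfe3a (r = 0.992), tp53bp2, nars, col15a1b, frem1b, farsa, lamb1a, sesn2, mthfd2 and cab39l (r = 0.980). Tfe3a, which encodes a transcription factor of the family that acts on lysosomal genes in mammals, stood at 14.5 and 10.7 FPKM with progesterone, 2.95 and 5.09 in morpholino DMSO and 5.15 and 3.39 in uninjected cells. The mean profile was itself high with progesterone (0.85 and 0.89) and low in DMSO (-0.60 to -0.30). The choice thus favours genes high with progesterone, and their count is not a result. In deposited FPKM, 8 of the 10 had both progesterone libraries above all 4 DMSO libraries, where 3.25% of all tested genes did. The exceptions were tp53bp2, at 13.99 and 8.64 FPKM with progesterone, and cab39l, at 11.96 and 7.67, whose progesterone libraries overlapped the DMSO ones. The points share 3 groups and the library medians, so such an r describes levels relative to those medians. Against the mean of the other 7, r was between 0.759 and 0.975 for the 6 higher genes, -0.36 for hmgcrb and -0.22 for idi1. The 8 genes were chosen on these same 6 libraries, so these r describe that choice and are no test of likeness.

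The label was checked against neural crest markers. Sox10 was between 60.0 and 191.1 FPKM in every library, tfap2a between 56.7 and 149.4, while foxd3 was at 0.659 FPKM in the 5 ng library and at or near 0 in the other 5, and no entry named crestin was found. Summed over 14 entries, neural crest markers were 636.7 and 694.9 FPKM in uninjected cells, 569.8 and 635.6 in morpholino DMSO and 349.1 and 947.5 with progesterone. After scaling they were 598.5 and 1022 with progesterone, above the 508.4 to 527.8 of the 4 DMSO libraries. Much of this was snai1b, at 326.8 and 173.3 with progesterone in experiments 1 and 2, against 53.2 to 93.7 in DMSO. Scaled sox10 (206.1 and 102.9) and tfap2a (158.1 and 97.2) were above all 4 DMSO libraries in experiment 1 and below them in experiment 2. The sum therefore does not describe every marker. Marker sums of other cells are given as deposited and after median-ratio scaling. Neural markers (10 of 10 detected) summed to between 17.5 and 18.3 FPKM with progesterone, 99.2 and 122.7 in morpholino DMSO and 66.4 and 88.4 in uninjected cells. After scaling their progesterone libraries, at 19.7 and 30.0, were also below all 4 others, the lowest of which was at 55.1. Epidermal markers (8 of 8) summed to 57.4 and 68.3, against 102.8 and 161.3 in morpholino DMSO and 133.7 and 141.9 in uninjected cells, but after scaling the progesterone libraries, at 73.6 and 98.5, overlapped the morpholino DMSO ones, at 82.2 and 146.4. Most of the scaled progesterone sums was krt8, at 51.0 and 62.8 against 48.9 and 46.3 in morpholino DMSO. Of the 5 epidermal entries tested, krt8 was thus higher without overlap and 3 (epcam, krt5 and cdh1) were lower, where 20.1% and 24.3% of all tested genes were. The epidermal sum does not describe every marker. Yolk, endoderm and hatching gland markers (13 of 23 entries above 0 in any library) summed to 2.77 and 11.5, against 17.4 and 28.5 and 15.5 and 23.6 FPKM, with both mtp entries, sox17, foxa2 and gata6 at 0 throughout. After scaling their sums with progesterone, 4.75 and 12.4, were below morpholino DMSO, at 13.9 and 25.9, and overlapped uninjected cells, at 11.7 and 19.6. In the 4 DMSO libraries most of this sum was the he1a, he1b and ctslb entries. Scaled tfa, which averaged under 1 FPKM, was higher with progesterone, at 1.90 and 3.57, than in morpholino DMSO, at 0.191 and 1.12. This sum, too, does not describe every marker in it. Otic markers (8 of 9, atoh1b at 0) summed to between 18.1 and 23.3 with progesterone, 22.7 and 30.9 in morpholino DMSO and 55.4 and 64.2 in uninjected cells. After scaling the progesterone sums, 25.2 and 31.0, were above morpholino DMSO, at 20.6 and 24.7, and below uninjected cells, at 41.9 and 53.2. Most of the scaled progesterone sums was oc90, at 18.2 and 21.8, against 5.69 and 4.55 in morpholino DMSO. Scaled stm (0.950 and 0.651 against 5.82 and 7.27) and dlx3b (0 and 0 against 5.51 and 2.16) were lower, so this sum does not describe every otic marker. Blood and endothelial markers (8 of 9, hbbe1.1 at 0) summed to 3.69 and 13.8, against 23.8 and 38.3 and 48.5 and 64.6, and after scaling to 6.32 and 14.9, below all 4 DMSO libraries, the lowest of which was at 21.6. Most of each sum was fli1a, at 12.8 and 3.10 FPKM with progesterone, 35.2 and 22.4 in morpholino DMSO and 45.3 and 59.5 in uninjected cells. Kdrl was at most 0.574 FPKM and cdh5 at most 0.363 in any library, so the sum describes fli1a more than these cell types. Muscle markers (7 of 7) never exceeded 3.24 FPKM in sum, or 2.95 after scaling. Notochord markers (4 of 4) summed to 15.7 and 24.6 with progesterone, 34.2 and 43.8 in morpholino DMSO and 15.6 and 18.6 in uninjected cells. After scaling these sums were 16.9 and 42.2 with progesterone, 27.4 and 39.7 in morpholino DMSO and 13.0 and 14.1 in uninjected cells. The part of these shifts in the sterol gene values was not tested.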

How the data were processed

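RNA of sorted sox10-positive cells was measured by RNA-seq, with ribosomal RNA removed and low-input libraries made, per the labels' protocols. The authors deposited 1 table of FPKM, a unit named in a stray header line at its foot (1 row, removed), with 6 library columns of 3 groups, while the labels list 7 samples. Per the submitters' processing notes, cutadapt, TopHat2 2.0.11 and Cufflinks 2.2.1 were used, and builds Zv9 and hg19 are named with no role. Columns were assigned by name.

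Values were tested on log2(FPKM + 1) with limma 3.58.1 in R 4.3.3 (eBayes with a trend, 1 mean per group, 3 residual degrees of freedom) for the 13155 genes averaging 1 FPKM or more, adjusted by Benjamini-Hochberg over all of them. This scale understates the change of low genes. Because libraries of a group may be technical, p-values measure only the spread between them, and an exact permutation test of 2 against 2 cannot give a two-sided p below 0.333. Members and lists were chosen with earlier results of these data known. All 8 members, the listed pathway genes, markers and the 10 most alike genes could be named. List symbols were matched to file names and to current symbols by gene identifier. Alternatives were another scaling, pseudocounts of 0.1 and 5, other filters, a block and leaving out each library. Sequences were not used here. Some genes of the lists are not reported here by name, though counts over a list include them.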

Additional observations from a re-analysis of the deposited data

How the results depend on the processing

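The median relative change of the 8 sterol genes with progesterone in injected embryos was 1.56 and kept its sign under all alternatives. It was 1.98 with a pseudocount of 0.1, 0.82 with 5 and 1.28 with no filter on low values, and leaving out each library gave 1.15 to 1.97. Against uninjected cells it was 1.78, and 2.25, 0.90 and 1.45 under the same 3 alternatives, 1.46 to 1.86 leaving out each library, and 1.51 with median-ratio scaling and no progesterone library of experiment 2, a combination chosen after seeing the data. For the morpholino against no injection it was 0.06 and turned sign, from -0.20 to 0.45, leaving out each library. The relative changes of srebf2, FDFT1, hmgcs1, insig1, dhcr7 and cyp51 with progesterone stayed above 0 in all 15 settings in injected embryos, and that of hmgcrb below 0, while that of idi1 was above 0 in 12. Some of these settings cannot move a difference: the block, the fit of the compared groups alone, and leaving out an uninjected library.

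The count of other sterol pathway genes called was 0 in every alternative of the morpholino comparison. It was 0 to 9 leaving out each library in the progesterone comparison and 0 to 8 against uninjected cells. The 9 calls (1 higher, 8 lower) and the 8 calls (all lower) came without the progesterone library of experiment 1, where the lone progesterone library, that of experiment 2, is assumed to vary like the other groups. Of all tested genes 28.4% and 31.0% were called lower in these 2 comparisons then. Leaving out each library, the relative change of faf2 ran from -0.99 to 0.061 with progesterone in injected embryos and from -0.87 to 0.18 against uninjected cells, above 0 only without that same library, and the cause was not tested. The differences between experiments 1 and 2 had little in common in DMSO and progesterone (r = 0.08 across genes). Each difference is of single libraries, and 1 of them is the progesterone library with the low FPKM sum. This r therefore cannot show whether libraries of the same number were prepared together. A fit with a replicate block also gave 0 calls, and its median relative change of 1.56 could not differ, the design being balanced. Depth is unknown, which limits low genes such as cyp51, sqlea and hmgcra most.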
